A study of Sus scrofa with 37 samples.

Results

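The 9 genes described here are used as marks of alpha cell identity: TTR, IRX1, IRX2, GC, LOXL4, TM4SF4, FAP, SLC7A2 and DPP4. They were taken by symbol, and all 9 had a row among the 25880 Ensembl pig gene identifiers in the count tables. RNA had been sequenced from pig pancreas and from isolated pig islets to compare organs of higher and lower islet density. A pancreas sample was a piece of 50 mg from the duodenal lobe, and an islet sample was purified and then cultured for 7 days. The libraries were 8 pancreas High, 9 pancreas Low, 8 islets High, 9 islets Low and the islets of animal 12AS51, whose density label gives neither. They came from 19 animals, of which 16 had both tissues, and the labels used here give no breed or age and do not say how density was measured. All groups are untreated tissue. Labels were given per sample and could differ between the tissues of the same animal. Among animals with both tissues, 12FS135 and 12FS161 are Low in pancreas and High in islets, and 15LS26 and 16IS5 are the reverse. Animal 15LS30 is also labelled Low in pancreas and High in islets, but its islets were not analysed here. The islets differ from the pancreas both in purification and in the culture, and these cannot be told apart.

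Alpha cells are the islet cells that secrete glucagon, the hormone that raises blood glucose. They take up amino acids, which stimulate glucagon secretion. Several of the 9 genes are known as alpha cell marks chiefly from human islets, and most are also active in other organs or cell types: TTR and GC encode liver plasma proteins, and FAP is named for its expression in activated fibroblasts.

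The islet libraries held 3237653 to 6702589 gene counts. There were 10 pancreas libraries with 1855075 to 3922006 counts and 7 with 265000 to 536014. The shallow ones were those of animal 12FS135 and of all 6 animals whose code begins with 14, and all 7 are labelled Low, so that depth and density label are largely confounded in pancreas. A limit of 3 counts, which is what a count of 0 allows and covers counting error only, corresponded to 0.448 to 0.927 counts per 1000000 (CPM) in islets, 0.765 to 1.62 in the deeper pancreas libraries and 5.60 to 11.3 in the shallow ones. Shallow libraries also had a lower summed level of acinar markers, 9032 to 22344 CPM against 72825 to 223601 in the others. The islets of 12AS51 stood apart, with 87.8% of counts in 10 genes against at most 52.3% in the other islets. The source name of that library and of the islets of 11KS28 reads pancreas while the title says islets, and the title was followed. GCG, which encodes glucagon and defines alpha cells, ranged from 490 to 17748 CPM in islets and from 23.2 to 1925 CPM in pancreas. Acinar markers were at 3.77 to 486 CPM in islets.

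**Figure D1:**
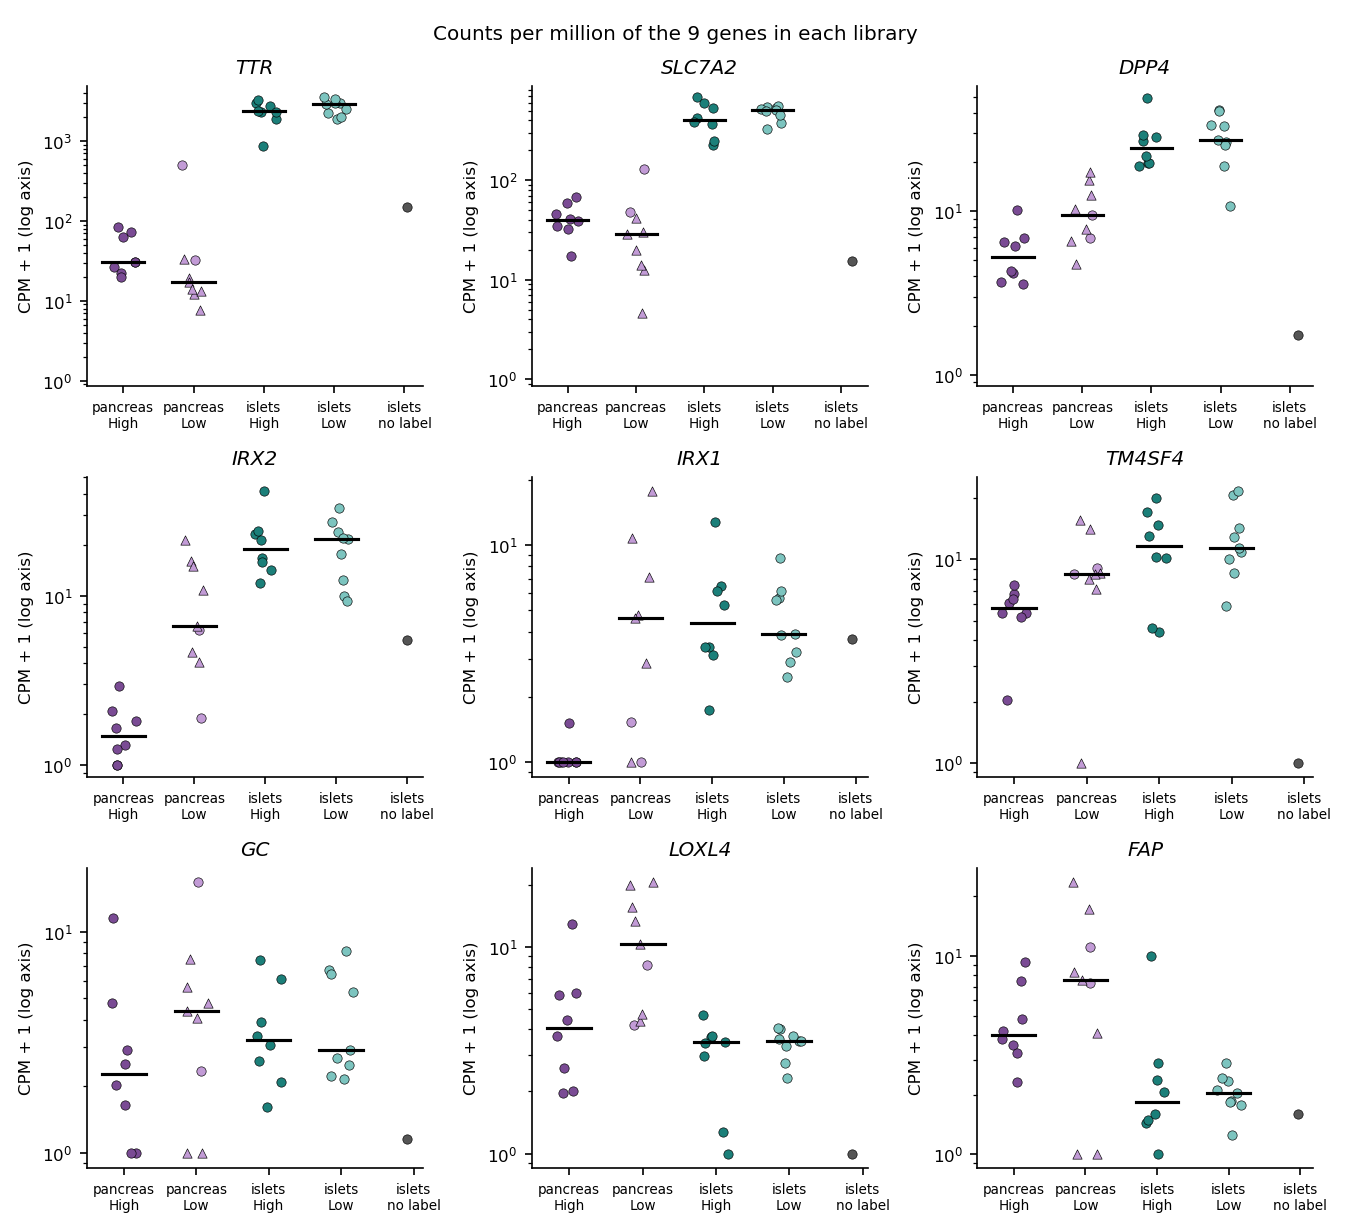
CPM plus 1 (log axis) of each gene in each library, by tissue and density label. Circles are libraries over 1000000 counts, triangles the 7 shallow pancreas libraries, and bars group medians. TTR and SLC7A2 separate the tissues in all but the islets without a density label, whereas GC overlaps fully.

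TTR, SLC7A2, DPP4, IRX2 and IRX1 were higher in islets than in pancreas, and LOXL4 was lower. TM4SF4 and GC did not pass the test, and FAP was below the filter on low counts and was not tested. Among all genes tested in this comparison, 62.6% differed, 31.1% higher and 31.5% lower, so that a difference between these tissues is the usual case. Of the 9 genes 8 passed the filter on low counts, with 5 higher, 1 lower and a median log2 fold change of 1.91, beside -0.01 over all 12339 genes tested. In bulk samples a larger number of alpha cells, more RNA per alpha cell and RNA from other islet cells cannot be told apart.

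TTR encodes transthyretin, the carrier of thyroxine and of retinol-binding protein. It ranged from 148 to 3601 CPM in islets, with a median of 2452, and from 6.75 to 507 CPM in pancreas, with a median of 25.4. All but the islets of 12AS51 lay above every pancreas library, and TTR was higher in islets in 16 of 16 animals. The log2 fold change was 4.96 (SE 0.41, edgeR quasi-likelihood test, adjusted p = 8.26e-14). The highest pancreas library, at 507 CPM, was that of 15LS30, which was also highest in GCG (1925 CPM) and INS (7803 CPM).

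SLC7A2 encodes a transporter of cationic amino acids such as arginine. It ranged from 14.3 to 686 CPM in islets (median 472) and from 3.64 to 128 CPM in pancreas (median 33.7). As for TTR, 17 of 18 islet libraries lay above all pancreas libraries, the exception being 12AS51, and 15 of 16 animals were higher in islets. The log2 fold change was 2.91 (SE 0.23, edgeR adjusted p = 2.32e-14).

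DPP4 encodes dipeptidyl peptidase 4, the cell-surface protease that cleaves the incretin hormones. In the RefSeq gene order of assembly Sscrofa11.1 its gene adjoins GCG, which lies between DPP4 and FAP. DPP4 ranged from 0.746 to 48.3 CPM in islets (median 25.8) and from 2.60 to 16.4 CPM in pancreas (median 5.82). Here 16 of 18 islet libraries lay above every pancreas library, and 15 of 16 animals were higher in islets. The log2 fold change was 1.59 (SE 0.23, edgeR adjusted p = 1.17e-07). FAP lies on the other side of GCG.

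IRX1 and IRX2 encode Iroquois homeodomain transcription factors and are neighbours on the chromosome in the same gene order, with C16H5orf38 between them. IRX2 ranged from 4.48 to 40.7 CPM in islets (median 18.4) and from 0 to 20.2 CPM in pancreas (median 1.92). IRX1 ranged from 0.732 to 11.7 CPM in islets (median 2.88), on 3 to 38 counts per library, and from 0 to 16.9 CPM in pancreas, where 9 of 17 libraries had no count. The pancreas values that overlap the islets came from shallow libraries with at most 6 counts of IRX2 and 5 of IRX1, and, for IRX2, also from the deeper pancreas of 15LS30 at 5.31 CPM (10 counts). The log2 fold change was 2.69 for IRX2 (SE 0.46, edgeR adjusted p = 2.94e-06) and 2.23 for IRX1 (SE 0.72, adjusted p = 0.00674). IRX2 was higher in islets in 14 of 16 animals and IRX1 in 12. Without the 7 shallow libraries the log2 fold changes were 3.80 for IRX2 (adjusted p = 1.58e-09) and 4.61 for IRX1 (adjusted p = 7.69e-06). The deeper pancreas libraries had at most 2 counts of IRX1 and 10 of IRX2 each, so that the size for IRX1 rests on counts near 0.

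Both calls depended on which libraries entered. Among Low libraries only, where 7 of 9 pancreas libraries were shallow, IRX2 did not pass (log2 fold change 0.91, adjusted p = 0.0875) and IRX1 turned to -0.23 (adjusted p = 0.806). IRX1 also did not pass with DESeq2 (1.13, adjusted p = 0.133). The 4 other Iroquois genes, IRX3 to IRX6, which are not counted among alpha cell marks here, were summed to at most 1.98 CPM in any islet library. In pancreas their sum was 0 to 4.85 CPM in High and 6.26 to 67.5 CPM in Low libraries.

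TM4SF4 encodes a tetraspanning membrane protein of the L6 family. It ranged from 0 to 20.7 CPM in islets (median 10.1) and from 0 to 14.6 CPM in pancreas (median 6.17), and the tissues overlapped widely. It was higher in islets in 11 of 16 animals, with a log2 fold change of 0.34 (SE 0.28, 95% interval -0.22 to 0.90, edgeR adjusted p = 0.303). With no filter on low counts it passed (0.70, adjusted p = 0.0225). Its relative TM4SF1 was lower in islets (log2 fold change -3.10, adjusted p = 2.71e-14).

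GC encodes the vitamin D binding protein, a plasma carrier made in liver and, in mouse and human, also in alpha cells. It ranged from 0.149 to 7.21 CPM in islets (median 1.999) on 1 to 28 counts, and from 0 to 15.9 CPM in pancreas (median 1.91) on 0 to 33 counts. The tissues overlapped. GC was higher in islets in 11 of 16 animals by CPM, whereas the fitted log2 fold change was -0.69 (SE 0.44, 95% interval -1.55 to 0.18, edgeR adjusted p = 0.174). CPM and the fit are on different scales, since the fit also used TMM factors. Their medians were 1.37 in islets and 0.845 in pancreas, which lowers islet values in the fit relative to CPM. The factor of the 12AS51 islets was 0.125. The 2 highest pancreas libraries for GC, 15LS30 at 15.9 CPM (30 counts) and 11KS28 at 10.6 CPM (33 counts), were also the 2 highest in summed liver plasma protein markers, at 1019 and 951 CPM. The median of that sum was 49.7 CPM over the pancreas libraries and 7.99 CPM over the islets. The part of these markers in the GC values was not tested.

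LOXL4 encodes a lysyl oxidase-like enzyme of the extracellular matrix. It ranged from 0 to 3.69 CPM in islets (median 2.49) and from 0.961 to 19.7 CPM in pancreas (median 4.88). It was lower in islets in 13 of 16 animals, with a log2 fold change of -1.98 (SE 0.36, edgeR adjusted p = 7.78e-06). The 4 related genes on the lysyl oxidase list had only LOXL2 tested, which did not pass (1.03, adjusted p = 0.116).

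FAP encodes fibroblast activation protein, a serine protease related to DPP4. It ranged from 0 to 9.03 CPM in islets (median 0.948) and from 0 to 22.6 CPM in pancreas (median 3.81), and was higher in islets in only 2 of 16 animals. It did not pass the filter. With no filter its log2 fold change was -1.90 (SE 0.41, adjusted p = 0.000114). The highest islet library was that of 12FS135 at 9.03 CPM (37 counts), where the next was at 1.89, and the same library had the highest fibroblast and stellate marker sum among islets, 622 CPM in a range of 66.7 to 622. Over all libraries the medians of that sum were 255 CPM in islets and 179 CPM in pancreas, whereas the medians of FAP ran the other way. The markers on that list were themselves split: of 8 tested, 4 were higher in islets and 4 lower, with a median log2 fold change of -0.34. Over all genes tested 31.1% were higher and 31.5% lower. The part of fibroblasts in the FAP values was not tested.

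**Figure D2:**
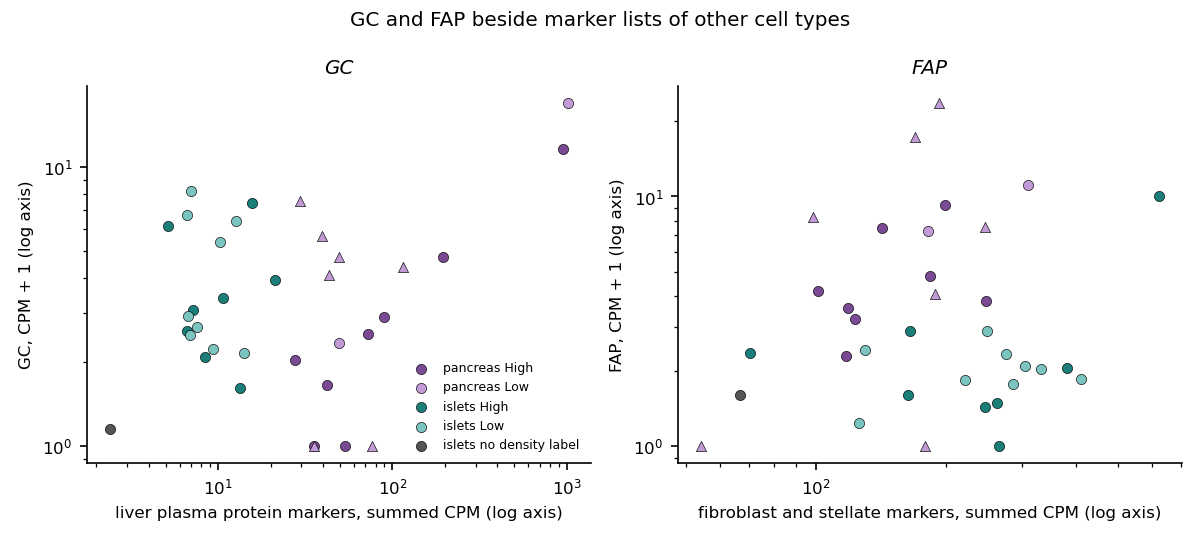
Left, GC (CPM plus 1, log axis) against the summed CPM of liver plasma protein markers (log axis); right, FAP against the summed fibroblast and stellate markers, one point per library and triangles for the shallow pancreas libraries. The 2 pancreas libraries at 951 and 1019 CPM of plasma protein markers are highest in GC, and one islet library is highest in both FAP and the fibroblast markers among islets.

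**Figure D3:**
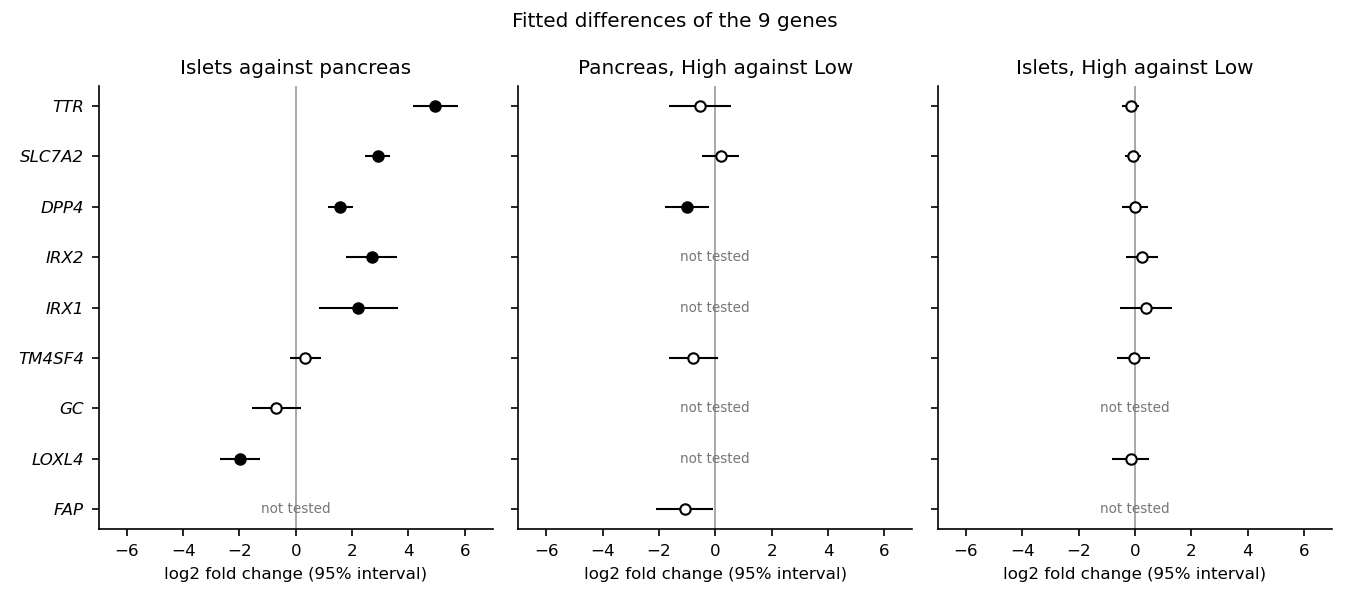
Fitted log2 fold changes with 95% intervals in the comparison of tissues and in both comparisons of density labels. Filled points passed an adjusted p of 0.05, and genes below the low-count filter are marked as not tested. TTR shows the largest tissue difference of the 8 genes tested, and no gene is called in the islets.

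Relative to GCG in the same library, the genes divided. The log2 ratio of TTR to GCG, with 1 CPM added to each, had a median of -1.82 in islets and -2.04 in pancreas, and was lower in islets in 4 of 16 animals. The ratio of SLC7A2 to GCG was lower in islets in 15 of 16 animals, and those of the other 7 genes in 16 of 16. GCG itself had a log2 fold change of 4.75 between tissues (SE 0.49, edgeR adjusted p = 5.53e-11). A gene that rose less than GCG tends to have a lower ratio in islets. The median log2 fold change over all 12339 genes tested was -0.01, so that a lower ratio is the usual case. Its share over all genes was not computed. For genes near 0 CPM the ratio is set almost wholly by GCG.

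**Figure D4:**
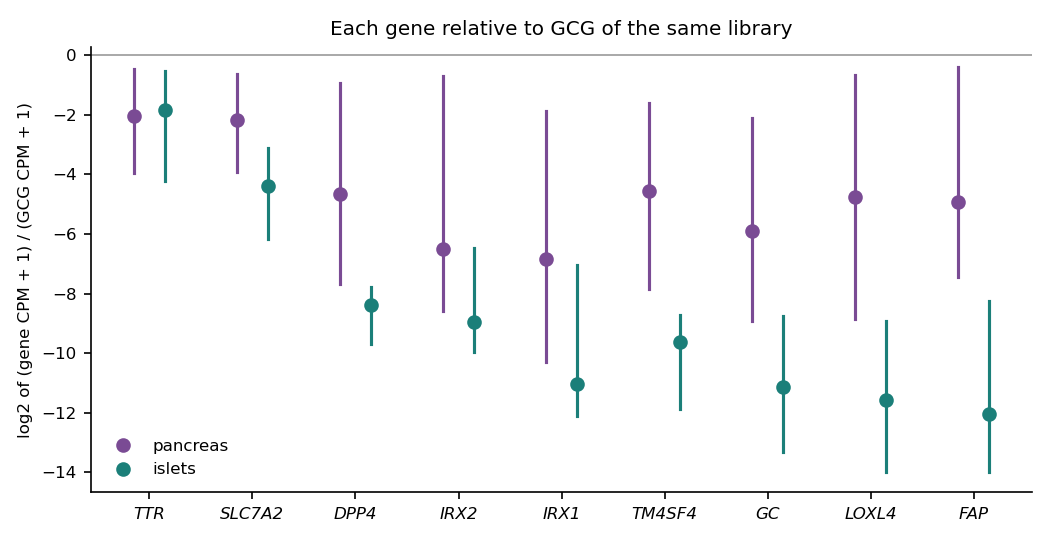
Log2 ratio of each gene to GCG in the same library, with 1 CPM added to both, shown as the median (point) and full range (line) for 17 pancreas and 18 islet libraries. The TTR ranges overlap almost entirely, with medians of -2.04 and -1.82, whereas the median of every other gene lies lower in islets.

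In pancreas, the question was whether the genes followed the density label. In this comparison 40.5% of 10634 genes tested passed, 18.4% higher and 22.1% lower in High. Of the 9 genes 5 passed the filter and 1 of them, DPP4, was called lower in High. The filter on low counts works on CPM, which shallow libraries, all of them Low, can reach on few counts. A gene can thus enter the test through the group where it is higher. In the shallow libraries DPP4 was at 3.77 to 16.4 CPM on 1 to 5 counts, and FAP at 0 to 22.6 CPM on 0 to 7. DPP4 ranged from 2.60 to 9.16 CPM in High (median 4.22) and from 3.77 to 16.4 CPM in Low (median 8.49), with overlapping groups and counts of 1 to 20 per library. Its log2 fold change was -1.01 (SE 0.39, edgeR adjusted p = 0.0437).

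The DPP4 call was near the threshold and depended on the shallow libraries. Without them the log2 fold change was -0.16 (adjusted p = 0.932), as it was close to 0 without the animals whose code begins with 14 (-0.20, adjusted p = 0.843). With the acinar gene CPB1 as a covariate it was 0.17 (adjusted p = 0.999). Leaving out 1 library at a time gave adjusted p-values from 0.0173 to 0.112. Acinar markers, depth and density label moved together here, and their parts in the DPP4 value were not tested.

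The other 4 genes tested in pancreas did not pass. FAP had a log2 fold change of -1.09 (adjusted p = 0.0929), which passed with DESeq2 (-1.06, adjusted p = 0.0464). TM4SF4 had -0.77 (adjusted p = 0.16) and SLC7A2 0.19 (adjusted p = 0.674). TTR ranged from 18.9 to 82.4 CPM in High (median 29.9) and from 6.75 to 507 CPM in Low (median 16.2).

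The direction of TTR turned on a single library and on the tool. With all libraries its log2 fold change was -0.56 (SE 0.56, edgeR adjusted p = 0.445). Without the Low pancreas of 15LS30 it was 1.04 (adjusted p = 0.0181), higher in High. With DESeq2 and all libraries it was 1.05 (adjusted p = 0.0154). Over the 11 alternatives other than leaving out each library, TTR ranged from -2.43 to 1.05. GCG was at 0.48 with all libraries (adjusted p = 0.564) and passed without 15LS30, at 1.97 (adjusted p = 0.000463). It kept its sign on leaving out each library in turn. Over the other 11 alternatives it ranged from -1.72 to 2.02, and its sign turned in 3 of them.

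IRX1, IRX2, GC and LOXL4 did not pass the low-count filter in pancreas and were not tested there. IRX2 was at 0 to 1.92 CPM in High and 0.895 to 20.2 CPM in Low. IRX1 had no count in 7 of 8 High libraries, which allows up to 0.834 to 1.62 CPM each, and at most 5 counts in any Low library. LOXL4 was at 0.961 to 11.8 CPM in High and 3.18 to 19.7 CPM in Low. In a shallow library a single count stands for more than in a High library, and the medians of IRX2 and LOXL4 over the shallow libraries, 9.83 and 12.3 CPM, rest on at most 6 counts each per library.

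In islets, no gene of the 9 differed between density labels, and none of 12070 genes tested did (0%), also with DESeq2 and limma-voom. At an unadjusted p of 0.05, 258 genes passed with edgeR, 297 with DESeq2 and 249 with limma-voom. Of the 9 genes 7 were tested. GC, at 0.618 to 6.45 CPM in High and 1.15 to 7.21 CPM in Low, and FAP, at 0 to 9.03 CPM and 0.244 to 1.89 CPM, were below the filter. TTR ranged from 877 to 3283 CPM in High (median 2354) and from 1871 to 3601 CPM in Low (median 2877), and the groups overlapped.

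The intervals give the precision of the islet comparison. The log2 fold change of TTR was -0.15 (95% interval -0.47 to 0.16) and that of SLC7A2 was -0.06 (-0.34 to 0.22). DPP4 had 0.00 (-0.46 to 0.47), with 17.98 to 48.3 CPM in High and 9.78 to 40.5 CPM in Low. IRX2 had 0.24 (-0.33 to 0.81) and IRX1 0.40 (-0.53 to 1.33), and their adjusted p-values, like those of the others, were 1.

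Whether the density difference itself differed between tissues was tested for all 9 genes. Each library entered under its own label, so that some animals were High in one tissue and Low in the other. In that test 39.9% of 14337 genes passed, 22.2% with a higher and 17.7% with a lower difference in islets. IRX1 (log2 5.01, SE 1.20, adjusted p = 0.00166) and IRX2 (log2 3.30, SE 0.71, adjusted p = 0.000615) passed. Both, like GC and LOXL4, had been below the low-count filter in the comparison within pancreas. There IRX1 had no count in 7 of 8 High libraries, and IRX2 had at most 10 counts in any library. Without the shallow libraries neither passed, at 1.26 (adjusted p = 0.865) and 1.86 (adjusted p = 0.391), and 69 genes were called in all. FAP (1.67, adjusted p = 0.0816), LOXL4 (0.79, adjusted p = 0.334), DPP4 (0.60, adjusted p = 0.245), GC (0.45, adjusted p = 0.709) and TM4SF4 (0.39, adjusted p = 0.559) did not pass. Lymphocyte markers summed to 27.98 to 83.3 CPM in the shallow libraries and to 2.54 to 18.3 CPM in the High ones, and the part of other cell types in the IRX values was not tested.

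With the animal as a replicate block, over the animals with both tissues, TTR passed at -1.64 (adjusted p = 0.021) and SLC7A2 at -1.37 (adjusted p = 0.0136). Unblocked, they were at 0.22 (adjusted p = 0.831) and -0.48 (adjusted p = 0.361). Without animals 12FS135 and 15LS30 the unblocked values were -1.44 (adjusted p = 0.00947) and -0.99 (adjusted p = 0.0265). The blocked fit holds no pancreas library of 15LS30, since its islets were not analysed here. Without the shallow libraries they were 1.85 (adjusted p = 0.151) and 0.43 (adjusted p = 0.667), so that the sign of both turned on which pancreas libraries entered.

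Over the 18 islet libraries, the genes were compared with GCG to see which varied with it. On the log2(CPM + 1) scale DPP4 had a Spearman rho of 0.75 (permutation p = 0.00047) and IRX2 one of 0.71 (permutation p = 0.00144). Among 12338 genes tested, 0.0243% passed an adjusted p of 0.05, and neither of these did (adjusted p = 0.23 and 0.408). Of all genes tested, 99.8% had a lower rho than DPP4 and 99.7% a lower one than IRX2. Pearson's r was 0.92 for DPP4 (permutation p = 1e-05, the smallest that 100000 permutations can give, adjusted p = 0.0112) and 0.78 for IRX2 (permutation p = 9e-05, adjusted p = 0.0339), where 0.527% of genes passed by r. Both calls by r were lost with TMM scaling (adjusted p = 0.106 and 0.79) and without the 2 libraries whose source name reads pancreas (adjusted p = 0.404 and 0.458).

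DPP4 and IRX2 kept a positive r without the extreme libraries, in a setting with no adjustment over all genes. Without the 2 libraries farthest from the median of GCG, 12AS51 and 12FS131, r was 0.72 for DPP4 (permutation p = 0.0013) and 0.70 for IRX2 (permutation p = 0.00278). For IRX1 it was 0.58 (permutation p = 0.0181), where it had been 0.39. TTR fell from r = 0.75 to 0.06, SLC7A2 from 0.82 to 0.09 and TM4SF4 from 0.78 to 0.39, so that the linear relation of these genes rested on those libraries. By rho, TM4SF4 went from 0.58 to 0.50 (permutation p = 0.0508), TTR from 0.34 to 0.32 and SLC7A2 from 0.41 to 0.25, with none past the adjusted threshold over all 18.

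Within the 6 animals whose code begins with 14, rho was -0.14 for DPP4 and -0.03 for IRX2. There r was 0.23 and 0.41 (exact permutation p = 0.696 and 0.442). Within the other 12 it was 0.94 and 0.88, and 0.76 and 0.81 over 10 of them without those of the doubted source name. With TMM-scaled values over all 18, r was 0.77 for DPP4 and 0.48 for IRX2. The genes with a symbol whose rho with GCG was highest were C4BPA (0.88, permutation p = 1e-05, adjusted p = 0.0411), ENPP3 (0.87, permutation p = 1e-05, adjusted p = 0.0411) and CASR, the calcium-sensing receptor (0.85, permutation p = 3e-05, adjusted p = 0.0925). With INS no gene of the 9 passed by rho, where 3.51% of genes did (3.5% with a positive rho), and rho was -0.27 for DPP4 and -0.35 for IRX2. By r with INS, 82.8% of genes passed, and of the 9 these were SLC7A2 (0.87, adjusted p = 0.027), TTR (0.85, adjusted p = 0.0252), LOXL4 (0.58, adjusted p = 0.0329) and GC (0.46, adjusted p = 0.0465). Without the 2 libraries farthest from the median of INS, 12AS51 and 15AS28, r turned to -0.28 for SLC7A2, -0.59 for TTR, -0.30 for LOXL4 and -0.19 for GC.

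**Figure D5:**
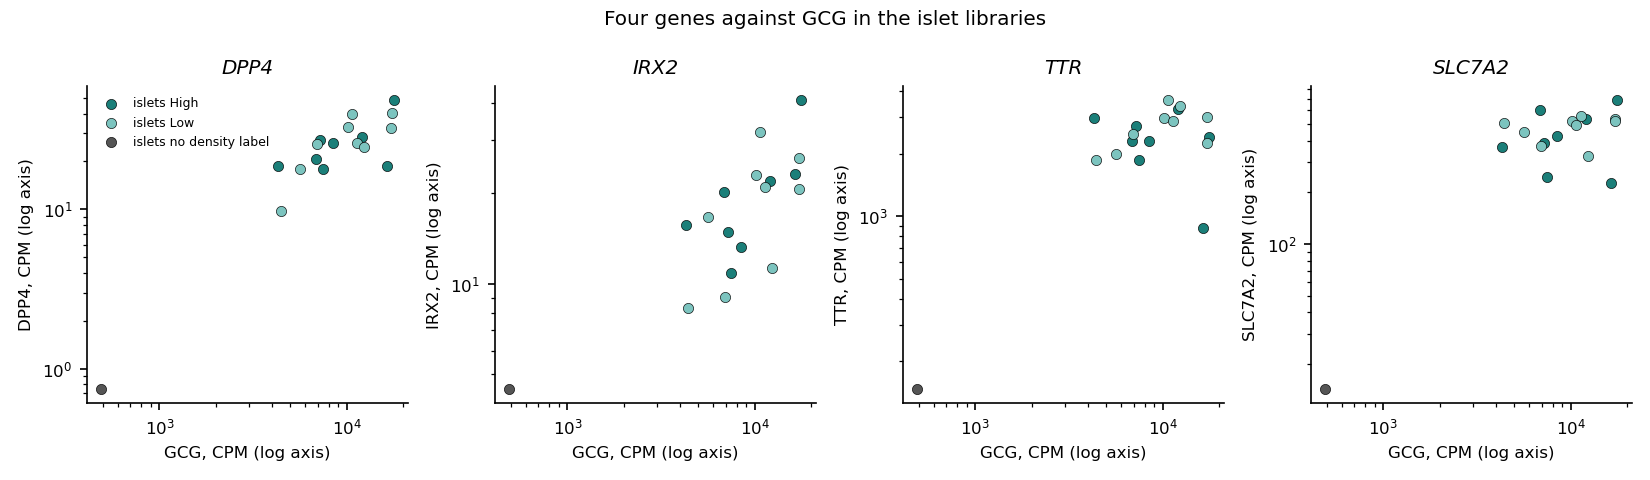
DPP4, IRX2, TTR and SLC7A2 against GCG (CPM, both axes log) in 18 islet libraries, coloured by density label. DPP4 and IRX2 rise with GCG also among the libraries on the right, and the lone point at lower left is 12AS51, at 490 CPM of GCG.

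A wider list of 30 alpha cell genes, of which 26 had a row, gave the setting for the 9. In the comparison of tissues 21 were tested. Of these 15 were higher in islets and 6 lower, where 31.1% and 31.5% of all genes tested were. Their median log2 fold change was 2.66, beside -0.01 over all genes. The largest were PCSK2, the proglucagon-processing convertase (5.08, adjusted p = 3.93e-13), GCG, MUC13 (4.64, adjusted p = 2.01e-14) and CLU, or clusterin (4.58, adjusted p = 2.65e-12). The lowest were POPDC3 (-3.92, adjusted p = 1.15e-12), ALDH1A1 (-2.95, adjusted p = 8.41e-12), NPNT (-1.92, adjusted p = 1.21e-10) and PLCE1 (-1.82, adjusted p = 5.41e-08). Markers of other islet cells rose as well, so the rise was not particular to alpha cell genes. All 5 beta cell markers tested were higher in islets (median log2 fold change 3.94), among them INS at 5.08. The 2 delta and PP cell markers tested were also higher (median 3.76).

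In pancreas 13 of the wider list were tested between density labels, a comparison in which 40.5% of all genes tested passed. PTPRN2 was higher in High (1.27, adjusted p = 0.00133), and SSTR2 (-2.42), PAPPA2 (-1.80), RGS4 (-1.58) and PLCE1 (-1.07) were lower, with adjusted p-values of 0.00256 to 0.0257. In islets 20 were tested and none passed. Without the shallow libraries edgeR called 0 of all genes in pancreas, with 1222 at an unadjusted p under 0.05.

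Genes that work beside SLC7A2 moved in both directions between tissues: 10 of 11 amino acid transport and use genes were tested, 5 were higher in islets and 4 lower. Over all genes tested 31.1% were higher and 31.5% lower. SLC7A8 (4.32, adjusted p = 1.58e-14) and SLC38A4 (3.79, adjusted p = 8.87e-16) were higher, and SLC7A1, the paralogue of SLC7A2 (-0.94, adjusted p = 3.13e-05), and ASS1, of arginine synthesis (-6.17, adjusted p = 6.14e-20), were lower. Among 9 genes of prolyl peptidases and of incretin and glucagon receptors, 5 were higher and 2 lower. The higher ones included DPP10 (3.02), GIPR (2.46) and GCGR (2.45), the glucagon receptor, and the lower ones were PREP (-1.08) and GLP1R (-0.65).

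Of the plasma carriers and their receptors, TTR was the only one of 6 tested that was higher in islets. ALB, or albumin (-6.24, adjusted p = 8.53e-10), and the endocytic receptors LRP2 (-4.89, adjusted p = 1.28e-18) and CUBN (-4.30, adjusted p = 9e-10) were lower, and GC and the vitamin D receptor VDR (0.65, adjusted p = 0.116) did not pass. Among liver plasma protein markers 3 of 3 tested were lower in islets, as were 31.5% of all genes tested, whereas TTR was higher.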

How the data were processed

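Per the labels, RNA came from pig pancreas and cultured islets. The authors deposited raw read counts by Ensembl gene, used unchanged. FastQC, HISAT2 2.0.2, Subread, edgeR and build susScr3 are named, per the submitters' processing notes. The sources used here do not give the strand setting, annotation or counting options. Reads of overlapping, antisense or near-identical genes therefore cannot be told apart. RefSeq names of assembly Sscrofa11.1 served only for gene order, and no sequences are shown. Symbols were matched for 14857 of 25880 identifiers.

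Of 37 samples, 35 were paired with a column by animal code and tissue, and 1 further column of no listed sample stayed out. The islets of 15LS27 and 15LS30 were not analysed here. No 2 of 128 library pairs within a group were identical. The animal code is shared across tissues, but the own pancreas correlated best in only 4 of 15 animals (median r = 0.036), and the animal was used as a block in alternative fits only.

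Genes were filtered with filterByExpr, scaled by TMM and tested with the robust quasi-likelihood test of edgeR 4.0.16 in R 4.3.3, a two-sided test, with Benjamini-Hochberg adjustment over all genes tested and a threshold of 0.05. CPM used the column totals without TMM factors, so that CPM values and fitted fold changes are on different scales. Standard errors were derived from the F statistic, and 95% intervals use the normal distribution. Correlations used log2(CPM + 1) and 100000 permutations, or all of them for 6 libraries. DESeq2 1.42.0 and limma-voom 3.58.1 were alternatives, with other scalings and filters, other sets of libraries, and leaving out each library. The scripts were tested on simulated data. All 9 genes are named in the comparisons of groups, and from other lists the largest changes past the threshold. The 9 genes and the 19 lists were chosen with earlier results of these data known.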

Additional observations from a re-analysis of the deposited data

Results flagged for a closer look

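The 9 genes were checked in each group for a library whose gap to the nearest other, on the log2(CPM + 1) scale, is above Dixon's 95% critical value. Chance flags about 1 in 20 of such groups, and 36 were checked. TTR was lowest among High islets in 15AS28 at 877 CPM, where the next was 1865, and highest among Low pancreas in 15LS30 at 507 CPM, where the next was 32.8. IRX1 was highest among High pancreas in 15LS26 at 0.51 CPM, on 2 counts where all others had 0.

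TM4SF4 was lowest among High pancreas in 16IS5 at 1.03 CPM (next 4.20) and among Low pancreas in 12FS135 at 0 CPM (next 6.17), a shallow library. FAP was highest among High islets in 12FS135 at 9.03 CPM (next 1.88). DPP4 was highest among High islets in 12FS133 at 48.3 CPM (next 28.4).

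The density difference differed between tissues for IRX1, by 5.01 on the log2 scale (edgeR adjusted p = 0.00166), and for IRX2, by 3.30 (adjusted p = 0.000615). Both differences were lost without the 7 shallow pancreas libraries, as given above. Both genes were below the low-count filter in the comparison within pancreas.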

How the results depend on the processing

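The split of calls in pancreas was 45.5% higher in High, and 34.6% with upper-quartile scaling, which moved the median of all genes from 0.05 to -0.11. In the test of the difference between tissues it was 55.7%, and 63.8% with relative log expression and 70.5% with upper-quartile scaling (medians 0.15 and 0.26). Counts of genes called moved as follows. With no filter they were 15012 between tissues, 10836 in pancreas and 8812 for the difference of differences. In pancreas they were 7905 with a filter of 1 CPM, 2828 over animals labelled alike in their pancreas and islets, and 0 without the animals whose code begins with 14, without the shallow libraries, and with CPB1 as a covariate (where 2183, 1222 and 365 passed an unadjusted p of 0.05 with edgeR, the tool used throughout these). The difference of differences gave 69 without the shallow libraries, an alternative chosen after seeing the data. Leaving out 1 library at a time gave 7487 to 7942 calls between tissues and 3311 to 5037 in pancreas. Calls by rho with GCG went from 3 to 0, both with TMM scaling and without the 2 libraries whose source name reads pancreas, and those with INS from 433 to 0 and 10.

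No sign changed between tissues except that of IRX1 among Low libraries (-0.23). In pancreas TTR turned to 1.05 with DESeq2, 0.41 over same-label animals and 1.04 without 15LS30; SLC7A2 to -0.40 without the animals whose code begins with 14, -0.56 without the shallow libraries and -0.66 with CPB1; DPP4 to 0.17 with CPB1; and GCG to -0.74, -1.26 and -1.72 under the same settings as SLC7A2. Leaving out 1 library at a time, TTR in pancreas ranged from -0.72 to 1.04.

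In islets, where no call was made under any alternative run, signs near 0 turned. By the density label of the animal's pancreas IRX1 was -0.24, IRX2 -0.11, LOXL4 0.11, DPP4 -0.39 and GCG -0.49; over animals labelled alike IRX1 was -0.18, LOXL4 0.084, DPP4 -0.19 and GCG -0.34; without the animals whose code begins with 14 TTR was 0.16 and TM4SF4 0.050. IRX1 was -0.045 with limma-voom, and DPP4 -0.010 with upper-quartile scaling and -0.012 with no filter. Leaving out 1 library at a time, IRX1 ranged from -0.16 to 0.61, SLC7A2 from -0.17 to 0.014, TM4SF4 from -0.20 to 0.11, DPP4 from -0.17 to 0.084 and GCG from -0.19 to 0.25.

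In the difference of differences, the replicate block by animal gave -1.64 for TTR and -0.28 for GC, and leaving out 12FS135 and 15LS30 gave -1.44 and -0.52. Without the shallow libraries SLC7A2 was 0.43, LOXL4 -0.26 and GCG 1.33, and with no filter TM4SF4 was -0.034. Between tissues the block changed no call among the 5 genes it tested, and IRX1, GC, LOXL4 and FAP were below its filter. The rho with INS turned with TMM scaling to -0.16 for GC, -0.19 for SLC7A2 and -0.050 for LOXL4, and without the 2 libraries named above to -0.059 for GC and -0.16 for SLC7A2. The causes were not tested. Depth limits IRX1, IRX2, GC, LOXL4, FAP, TM4SF4 and DPP4, which have at most 7 counts in any shallow library.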
